A study of Mus musculus with 12 samples.

Results

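The genes described here are those that copy DNA in S phase, the part of the cell cycle in which the genome is duplicated, measured in livers of mice with floxed p53 alleles, 3 days or more after an adenovirus carrying either Cre recombinase or a control protein. A list of 47 genes was chosen by name, with earlier results of these data known. Shares of all genes set beside its counts are therefore descriptions. The list held genes of origin licensing, the replicative helicase, the DNA polymerases, the sliding clamp and nucleotide supply. Genes of the copying of chromatin, the E2F transcription factors and Brca1 were also on it. A gene was taken as measured where the platform annotation of a probe set (the group of array probes summarised into 1 value) names that gene alone, and the probe set with the highest mean was kept where there were several. This gave 46 of the 47 genes, out of 22180 genes measured in all, and Rfc4 was not analysed here.

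Liver RNA of 12 male C57Bl/6N mice aged 2 months, all carrying floxed p53 alleles (p53 fl/fl, strain name Trp53tm1Brn/J), was hybridised to Affymetrix arrays, 3 per group. The virus was given by the tail vein and expressed either Cre recombinase (Adeno-Cre), which cuts out the floxed part of p53 in the cells it infects, or green fluorescent protein (Adeno-GFP), at equal titers. Mice of each injection were 3 days later either fasted for 24 h or left to feed freely, which gave the 4 groups Adeno-Cre fasted, Adeno-Cre fed, Adeno-GFP fasted and Adeno-GFP fed. The control groups therefore carried the floxed alleles and an adenovirus too, the 2 viruses differed in cargo as well as in what they did to p53, and these cannot be told apart here. The labels do not say which liver cells had lost p53. No probe set naming Trp53 alone was analysed, so the deletion itself could not be checked on its gene.

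Before a cell can copy its DNA, the origin recognition complex (Orc proteins), Cdc6 and Cdt1 load the ring of 6 MCM proteins onto each origin. Cdc45 and the GINS complex turn that ring into a moving helicase, primase lays down RNA primers, and polymerases held by the clamp Pcna extend them. E2F factors, kept in check by the retinoblastoma protein, drive the transcription of most of these genes as a cell enters S phase. p53 restrains that step, chiefly through the kinase inhibitor Cdkn1a. Most hepatocytes of an adult liver are out of the cell cycle and return to it after loss of liver mass or injury.

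A promoter window of RefSeq (build GRCm38.p6, from 250 bases before to 50 after a transcription start) was at hand for 39 of the 46 measured genes. The E2F motif was searched in these windows in its 4 spellings TTTCCCGC, TTTCGCGC, TTTGCCGC and TTTGGCGC, on both strands. At least 1 window held it in 17 of 39 genes, 43.6%, against 2.6% of 27025 genes with a window of the same length. The median GC content was 58.3% over 47 windows of these genes and 52.7% over all 32851 windows, and the motif is itself rich in G and C. The CHR element TTTGAA, a motif of genes expressed later, in G2 and mitosis, was in the windows of 7 of 39 genes, 17.9%, against 20.2% of all genes, and overlapped no E2F match. The windows below are those of the 4 genes with the smallest p for Adeno-Cre over both diets among those with an E2F match. They are followed by that of Rrm2, which also had a small p and had no match. Brca1, with the smallest p of all 46 genes, had no match either, and its window is not printed. Each is written from 5′ to 3′ on the strand of its gene, with E2F matches in capitals.
Pola1 (minus strand of chromosome X, 93632106 to 93632405): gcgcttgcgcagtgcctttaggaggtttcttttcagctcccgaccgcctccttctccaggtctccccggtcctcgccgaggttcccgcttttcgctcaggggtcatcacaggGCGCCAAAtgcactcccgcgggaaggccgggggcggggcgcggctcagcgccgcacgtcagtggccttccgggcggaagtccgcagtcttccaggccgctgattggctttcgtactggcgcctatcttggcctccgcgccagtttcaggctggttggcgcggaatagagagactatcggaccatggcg
Lig1 (plus strand of chromosome 7, 13278576 to 13278875): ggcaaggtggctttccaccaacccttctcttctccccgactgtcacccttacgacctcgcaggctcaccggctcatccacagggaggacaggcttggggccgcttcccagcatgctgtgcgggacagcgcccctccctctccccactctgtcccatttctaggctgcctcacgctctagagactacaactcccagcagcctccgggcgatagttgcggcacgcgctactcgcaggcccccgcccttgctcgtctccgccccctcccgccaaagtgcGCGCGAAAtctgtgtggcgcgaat
Rfc3 (minus strand of chromosome 5, 151651159 to 151651458): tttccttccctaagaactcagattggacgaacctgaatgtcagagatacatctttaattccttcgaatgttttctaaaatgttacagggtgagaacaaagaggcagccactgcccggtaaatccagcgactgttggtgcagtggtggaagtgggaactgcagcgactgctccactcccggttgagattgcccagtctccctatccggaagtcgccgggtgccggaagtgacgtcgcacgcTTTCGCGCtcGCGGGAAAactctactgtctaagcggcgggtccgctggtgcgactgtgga
Dnmt1 (minus strand of chromosome 9, 20952574 to 20952873): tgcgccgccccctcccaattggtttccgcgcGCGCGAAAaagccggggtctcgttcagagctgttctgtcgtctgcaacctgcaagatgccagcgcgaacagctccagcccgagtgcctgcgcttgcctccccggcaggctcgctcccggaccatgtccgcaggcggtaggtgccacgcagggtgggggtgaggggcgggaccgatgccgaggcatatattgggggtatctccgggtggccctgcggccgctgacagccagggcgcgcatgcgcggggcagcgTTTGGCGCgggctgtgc
Rrm2 (plus strand of chromosome 12, 24708004 to 24708303): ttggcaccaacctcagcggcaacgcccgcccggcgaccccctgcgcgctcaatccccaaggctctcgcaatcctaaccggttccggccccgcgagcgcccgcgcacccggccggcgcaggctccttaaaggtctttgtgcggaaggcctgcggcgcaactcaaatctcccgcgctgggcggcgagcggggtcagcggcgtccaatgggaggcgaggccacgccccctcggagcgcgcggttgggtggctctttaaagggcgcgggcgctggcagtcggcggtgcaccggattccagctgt
Lig1 and Dnmt1 have 3 windows each, and the one holding a match is shown. In Rfc3 both matches lie at the transcription start, their first bases at positions -10 and 1 counted from it. Of the 17 genes with a match 11 rose after Adeno-Cre in fasted mice, with a median log2 change of 0.78, and of the 22 without one 15 rose, with a median of 0.65. In fed mice 2 of the 17 and 5 of the 22 rose, with medians of 0.27 with a match and 0.39 without one.

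Values are deposited log2 levels, in which a difference of 1 is a doubling. They ran from 1.62 to 13.96 over all probe sets, array medians lay between 6.26 and 6.33, and the correlation of 2 arrays from 1 group was 0.991 to 0.994. Changes are differences of group means with their standard error (SE), and p-values come from limma, a linear model with moderated variances fitted to all 12 arrays, adjusted by the Benjamini-Hochberg method over 22180 genes with a threshold of 0.05. The labels give no batch, litter or scan date, so the p-values take in only the variation among these 12 samples. A level near or under the array medians is not shown to be above background, and 8 of the 46 genes had at least 1 group mean under 6.26: Orc1, Cdc6, Pold1, Pole2, Chaf1a, E2f1, E2f2 and E2f7. Sizes of change against such a level are uncertain.

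The first comparison was Adeno-Cre against Adeno-GFP, the contrast made to study loss of p53, within the limits on cargo and on the check of Trp53 given above. Replication genes were higher after Adeno-Cre in both diets. In fasted mice 31 of the 46 genes rose and 0 fell, against 2.26% of all genes that rose, with a median log2 change of 0.65 (all genes, -0.03). In fed mice 8 rose and 0 fell, against 1.08% of all genes that rose, with a median of 0.34 (all genes, -0.02). The 3 Adeno-Cre arrays lay above the 3 Adeno-GFP arrays in 40 genes in fasted mice (9.96% of all genes) and in 31 in fed mice (8.4%). The 8 genes that rose in fed mice also rose in fasted mice: Brca1, Cdc45, Chaf1a, E2f8, Lig1, Pola1, Pole and Rrm2 (0.69% of all genes rose in both). Averaged over the diets 33 rose and 0 fell, with 3.55% of all genes rising, and Mcm10 and Rfc5 passed only in that average.

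The fed calls depended on which arrays were used. Their number was 0 when the fed array left out was replicate 1 or 3 of either injection, and 1 when it was replicate 2 of Adeno-Cre. Leaving out replicate 2 of Adeno-Cre fasted livers gave 4, leaving out replicate 1 of Adeno-GFP fasted livers gave 5, and the number was 0 when p-values were adjusted over all 41345 probe sets. Without replicate 1 or 3 of either fed group, calls in either direction over all genes numbered 31 to 114, against 331 with all arrays. In those fits the median change of the members was 0.3 to 0.36. The fasted calls numbered 22 to 31 without each array in turn, and 21 of the 31 genes passed in every one of those fits. In bulk liver, more cells in S phase and more RNA of these genes per cell cannot be told apart.

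**Figure D1:**
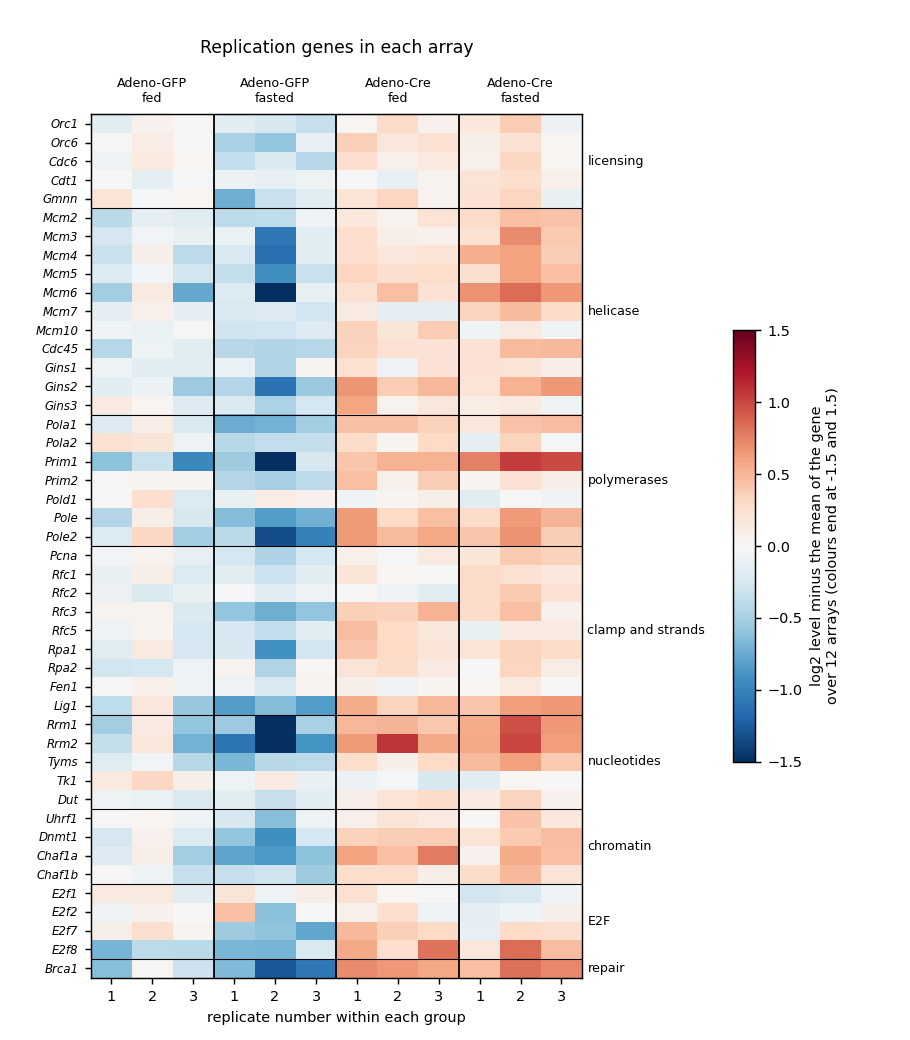
Deposited log2 level of each of the 46 replication genes in each of the 12 arrays, minus the mean of that gene over all arrays; rows are genes grouped by role and columns are arrays by group and replicate. Red is above and blue below the mean of the gene, colours end at 1.5 either way, and most rows are red in the 6 Adeno-Cre arrays and bluest in Adeno-GFP fasted replicate 2, the lowest of the 12 arrays for 28 genes.

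The arrays can be ranked by the median over the 46 genes of each gene's deviation from its own mean. The Adeno-Cre fasted arrays had medians of 0.21, 0.39 and 0.23, and the Adeno-Cre fed arrays 0.27, 0.23 and 0.22. The Adeno-GFP fed arrays had -0.12, 0.06 and -0.20, and the Adeno-GFP fasted arrays -0.35, -0.49 and -0.26. All 6 Adeno-Cre medians lay above the 6 Adeno-GFP medians, and among the Adeno-GFP arrays fasted replicate 3 and fed replicate 3 were close. In 39 of the 46 genes the group mean was lowest in Adeno-GFP fasted livers, next in Adeno-GFP fed livers, and higher in both Adeno-Cre groups. Adeno-GFP fasted replicate 2 stood lowest of all 12 arrays for 28 genes and Adeno-Cre fasted replicate 2 highest for 24. Without the former, 24 genes rose in fasted mice, and without the latter 22.

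Of the 5 genes that license origins, Orc6 and Cdc6 rose in fasted mice and 0 rose in fed mice. Orc6, the smallest subunit of the origin recognition complex, stood at 8.67, 8.79 and 8.61 after Adeno-Cre and at 8.09, 7.99 and 8.45 after Adeno-GFP in fasted livers. In fed livers the levels were 8.93, 8.75 and 8.81 after Adeno-Cre against 8.57, 8.69 and 8.58 after Adeno-GFP. The fasted groups did not overlap, the rise was 0.51 (SE 0.11, limma adjusted p = 0.0285), and the fed change of 0.21 did not pass (adjusted p = 0.478). Cdc6, the ATPase that joins the origin complex before the helicase is loaded, read 6.23, 6.46 and 6.18 in Adeno-Cre fasted and 5.78, 5.93 and 5.72 in Adeno-GFP fasted livers, a rise of 0.48 (SE 0.10, adjusted p = 0.0198). Its fed values of 6.40, 6.23 and 6.30 after Adeno-Cre and 6.07, 6.30 and 6.18 after Adeno-GFP differed by 0.13 (adjusted p = 0.665). The Orc6 call was lost without either of Adeno-Cre fasted replicates 1 and 2 or Adeno-GFP fasted replicates 1 and 2 (adjusted p up to 0.127), and that of Cdc6 without replicate 2 of the Adeno-Cre fasted group or replicates 1 or 3 of its Adeno-GFP controls (up to 0.0923).

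The other licensing genes did not pass in either diet. Orc1, the largest subunit of the origin complex, stood at 6.22, 6.45 and 5.98 after Adeno-Cre against 5.90, 5.83 and 5.72 after Adeno-GFP in fasted livers and at 6.10, 6.34 and 6.13 after Adeno-Cre against 5.91, 6.13 and 6.09 after Adeno-GFP in fed livers, all 4 group means under the array medians (changes 0.40, adjusted p = 0.0997, and 0.14, adjusted p = 0.692). Cdt1, which brings the MCM ring to the origin, was nearest to 0 of the 5 averaged over diets. Its fasted levels were 7.15, 7.20 and 7.02 after Adeno-Cre and 6.85, 6.82 and 6.87 after Adeno-GFP, a difference of 0.28 (adjusted p = 0.0893). Its fed levels were 6.93, 6.82 and 6.99 after Adeno-Cre and 6.93, 6.81 and 6.91 after Adeno-GFP, a difference of 0.03 (adjusted p = 0.923). The fasted groups of Cdt1 did not overlap and the fed groups did. Gmnn, geminin, which blocks Cdt1 until the next cycle, had changes of 0.55 (adjusted p = 0.0766) in fasted and 0.13 (adjusted p = 0.811) in fed mice.

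The replicative helicase held the most members, and 8 of its 11 genes rose in fasted mice and 1, Cdc45, in fed mice. In fasted mice all 11 had Adeno-Cre arrays above the Adeno-GFP arrays, with a median change of 0.83, and in fed mice 9 did, with a median of 0.38. Cdc45, which joins the MCM ring to make it a helicase, stood at 7.02, 7.28 and 7.29 in Adeno-Cre fasted and 6.39, 6.35 and 6.37 in Adeno-GFP fasted livers. In fed livers it stood at 7.14, 7.02 and 7.02 after Adeno-Cre and 6.37, 6.73 and 6.63 after Adeno-GFP. The groups did not overlap in either diet, and the rise was 0.83 (SE 0.10, adjusted p = 0.00102) in fasted and 0.48 (SE 0.10, adjusted p = 0.0406) in fed mice. Gins2, a subunit of the GINS complex that holds Cdc45 to the ring, read 8.49, 8.80 and 8.93 after Adeno-Cre against 7.84, 7.17 and 7.72 after Adeno-GFP in fasted livers. Its fed values were 8.94, 8.66 and 8.78 after Adeno-Cre against 8.13, 8.19 and 7.74 after Adeno-GFP. It rose 2.24-fold in fasted mice (log2 1.17, SE 0.18, adjusted p = 0.00352), and in fed mice its change of 0.78 missed the threshold (adjusted p = 0.0573) although the groups did not overlap.

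All 6 subunits of the MCM ring rose in fasted mice and 0 passed in fed mice. Mcm2 stood at 7.36, 7.53 and 7.50 after Adeno-Cre and 6.68, 6.70 and 7.01 after Adeno-GFP in fasted livers, a rise of 0.66 (SE 0.10, adjusted p = 0.00395). Its fed levels of 7.23, 7.13 and 7.28 after Adeno-Cre and 6.67, 6.94 and 6.89 after Adeno-GFP differed by 0.38 (adjusted p = 0.111). Mcm5 rose by 0.97 (SE 0.14, adjusted p = 0.00292), Mcm4 by 1.01 (SE 0.21, adjusted p = 0.023), Mcm6 by 1.36 (SE 0.33, adjusted p = 0.048) and Mcm3 by 0.89 (SE 0.21, adjusted p = 0.0449). In Adeno-GFP fasted livers the 3 arrays of Mcm6 read 8.53, 7.13 and 8.62 and those of Mcm3 7.07, 6.09 and 7.00, so replicate 2 lay far under the other 2 arrays. Without that array the changes were 0.88 for Mcm6 and 0.58 for Mcm3, and neither passed. Mcm3 kept its call in 2, Mcm6 in 3 and Mcm4 in 10 of the 12 fits without 1 array, and Mcm2, Mcm5 and Mcm7 in all 12.

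Mcm7 stood at 7.26, 7.40 and 7.21 in Adeno-Cre fasted and 6.70, 6.74 and 6.64 in Adeno-GFP fasted livers, a rise of 0.59 (SE 0.10, adjusted p = 0.00505). In fed livers it stood at 7.06, 6.79 and 6.78 after Adeno-Cre and 6.79, 7.00 and 6.78 after Adeno-GFP, a change of 0.02 (adjusted p = 0.967). The Adeno-Cre fasted arrays were the highest of the 12 for Mcm7 and the Adeno-GFP fasted arrays the lowest, and the fed groups overlapped. Of the GINS genes, Gins1 was nearest to 0 averaged over diets among the helicase genes, with fasted levels of 7.54, 7.51 and 7.42 after Adeno-Cre and 7.22, 6.87 and 7.36 after Adeno-GFP and fed levels of 7.55, 7.24 and 7.54 after Adeno-Cre and 7.24, 7.16 and 7.16 after Adeno-GFP (changes 0.34 and 0.26, neither past the threshold). Gins3 had a change of 0.38 (adjusted p = 0.186) and 0.28 (adjusted p = 0.432), and Mcm10, which helps to start the helicase, one of 0.26 (adjusted p = 0.13) and 0.35 (adjusted p = 0.0642).

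**Figure D2:**
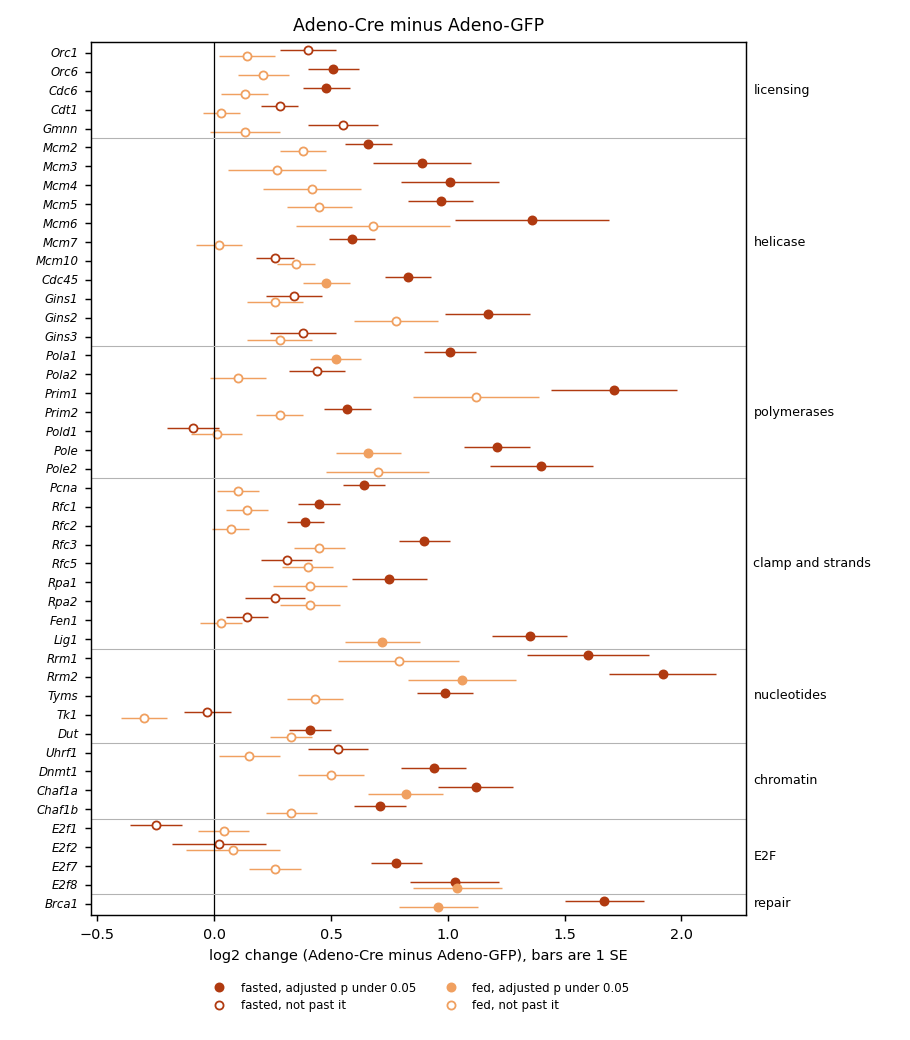
Log2 change of each of the 46 genes with Adeno-Cre (Adeno-Cre minus Adeno-GFP) in fasted and in fed mice, with 1 SE, genes grouped by role; filled points are genes that passed the threshold. In fasted mice 31 points are filled and in fed mice 8, and the fasted point lies to the right of the fed point for 39 genes.

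Among the 7 polymerase and primase genes, 5 rose in fasted and 2 in fed mice, with median changes of 1.01 and 0.52. Pola1, the catalytic subunit of the polymerase that starts each DNA strand, stood at 8.27, 8.53 and 8.56 after Adeno-Cre against 7.35, 7.39 and 7.59 after Adeno-GFP in fasted livers. In fed livers its levels were 8.54, 8.54 and 8.45 after Adeno-Cre against 7.90, 8.20 and 7.87 after Adeno-GFP. It rose by 1.01 (SE 0.11, adjusted p = 0.000506) in fasted and by 0.52 (SE 0.11, adjusted p = 0.0406) in fed mice, with no overlap in either. Its promoter window is the first of those printed above.

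Pole, the catalytic subunit of the leading-strand polymerase, read 7.39, 7.75 and 7.62 after Adeno-Cre and 6.47, 6.28 and 6.39 after Adeno-GFP in fasted livers, a rise of 1.21 (SE 0.14, adjusted p = 0.000685). In fed livers it read 7.75, 7.42 and 7.57 after Adeno-Cre and 6.68, 7.20 and 6.87 after Adeno-GFP, a rise of 0.66 (SE 0.14, adjusted p = 0.0355). A second probe set of Pole, with lower levels, had a change of 0.45 in fasted and 0.36 in fed mice. Pole2, its accessory subunit, rose by 1.40 in fasted mice (SE 0.22, adjusted p = 0.00427), where its Adeno-GFP mean lay under the array medians, and had a change of 0.70 (adjusted p = 0.184) in fed mice.

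Prim1, the catalytic subunit of primase, had the largest change of the polymerase and primase genes. Its fasted levels were 10.29, 10.59 and 10.53 after Adeno-Cre and 9.01, 7.97 and 9.30 after Adeno-GFP. Its fed levels were 9.95, 10.06 and 10.06 after Adeno-Cre and 8.92, 9.20 and 8.57 after Adeno-GFP. Adeno-Cre arrays lay above Adeno-GFP arrays in both diets, the fasted rise was 3.28-fold (log2 1.71, SE 0.27, adjusted p = 0.00382), and the fed change of 1.12 (SE 0.27) missed the threshold (adjusted p = 0.0635). Adeno-GFP fasted replicate 2 lay far under the other arrays of its group. Without 1 array in turn the fasted log2 change was 1.32 to 1.99, and it passed in all 12 fits. Prim2, the other primase subunit, stood at 7.04, 7.20 and 7.08 after Adeno-Cre and 6.54, 6.48 and 6.59 after Adeno-GFP in fasted livers, a rise of 0.57 (SE 0.10, adjusted p = 0.00608). Fed livers read 7.44, 7.06 and 7.35 after Adeno-Cre and 6.96, 7.03 and 7.03 after Adeno-GFP (change 0.28, adjusted p = 0.223). Pola2, the regulatory subunit of the starting polymerase, had a change of 0.44 (adjusted p = 0.0925) and 0.10 (adjusted p = 0.835).

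Pold1, the catalytic subunit of the lagging-strand polymerase, did not pass in either diet, and its groups overlapped. It read 6.07, 6.24 and 6.19 after Adeno-Cre against 6.13, 6.35 and 6.30 after Adeno-GFP in fasted livers and 6.19, 6.28 and 6.33 after Adeno-Cre against 6.26, 6.49 and 6.03 after Adeno-GFP in fed livers. Its changes were -0.09 (SE 0.11, adjusted p = 0.718) and 0.01 (SE 0.11, adjusted p = 0.987), with its levels close to the array medians.

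Of the 9 genes of the clamp, its loader, single-strand binding and Okazaki fragments, the short pieces in which the lagging strand is made, 6 rose in fasted and 1 in fed mice. Lig1, the ligase that joins these pieces, stood at 8.41, 8.62 and 8.64 after Adeno-Cre and 7.15, 7.34 and 7.15 after Adeno-GFP in fasted livers. The fed livers had levels of 8.55, 8.32 and 8.49 after Adeno-Cre and 7.61, 8.16 and 7.42 after Adeno-GFP. It rose 2.54-fold in fasted mice (log2 1.35, SE 0.16, adjusted p = 0.000721) and by 0.72 in fed mice (SE 0.16, adjusted p = 0.0429). In fed mice the gap between the groups was narrow, since Adeno-GFP fed replicate 2 lay close under the Adeno-Cre arrays.

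Rfc3, a subunit of the complex that loads the clamp, read 7.19, 7.35 and 6.96 after Adeno-Cre against 6.32, 6.17 and 6.31 after Adeno-GFP in fasted livers, a rise of 0.90 (SE 0.11, adjusted p = 0.000963). Its fed levels of 7.26, 7.25 and 7.42 after Adeno-Cre and 6.95, 6.95 and 6.68 after Adeno-GFP differed by 0.45 (adjusted p = 0.0699). Of the other loader subunits Rfc1 rose by 0.45 (adjusted p = 0.0182) and Rfc2 by 0.39 (adjusted p = 0.0232) in fasted mice, and Rfc5 had a change of 0.31 (adjusted p = 0.169). Rfc1 lost its call without replicate 1 or 2 of the Adeno-Cre fasted group or replicate 2 of its Adeno-GFP controls (adjusted p up to 0.0808), and Rfc2 also without Adeno-GFP fasted replicate 3 (up to 0.111). The arrays of Rfc2 read 8.06, 8.17 and 7.99 in Adeno-Cre fasted, 7.75, 7.61 and 7.70 in Adeno-GFP fasted, 7.80, 7.72 and 7.62 in Adeno-Cre fed and 7.69, 7.56 and 7.67 in Adeno-GFP fed livers, and only the first group lay apart from the other 3.

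Pcna, the clamp itself, stood at 10.20, 10.41 and 10.36 after Adeno-Cre and 9.75, 9.56 and 9.76 after Adeno-GFP in fasted livers, a rise of 0.64 (SE 0.09, adjusted p = 0.00204). In fed livers it stood at 10.10, 9.99 and 10.15 after Adeno-Cre and 9.98, 10.07 and 9.90 after Adeno-GFP, a change of 0.10 (adjusted p = 0.738) with overlapping groups. The proteins that coat single-stranded DNA did not all pass: Rpa1 rose by 0.75 in fasted mice (adjusted p = 0.0246), a call lost without any 1 of the 3 Adeno-Cre fasted arrays (adjusted p up to 0.102), and Rpa2 had a change of 0.26 (adjusted p = 0.335). A second probe set of Rpa1 had a change of 0.92 in fasted and 0.54 in fed mice. Fen1, the nuclease that trims Okazaki fragments, was nearest to 0, with fasted levels of 6.86, 6.98 and 6.84 after Adeno-Cre and 6.76, 6.61 and 6.89 after Adeno-GFP and fed levels of 6.92, 6.78 and 6.87 after Adeno-Cre and 6.82, 6.91 and 6.76 after Adeno-GFP. All 4 groups of Fen1 overlapped one another, its changes were 0.14 (SE 0.09, adjusted p = 0.438) and 0.03 (SE 0.09, adjusted p = 0.944), and its second probe set, at a lower level, had a change of 0.25 and -0.01.

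Nucleotide supply held the largest change of all members and one of the smallest. Of its 5 genes 4 rose in fasted and 1 in fed mice. Rrm2, the subunit of ribonucleotide reductase whose level limits the making of deoxynucleotides in S phase, stood at 9.44, 9.88 and 9.50 after Adeno-Cre and 7.79, 7.28 and 7.98 after Adeno-GFP in fasted livers. In fed livers it stood at 9.51, 9.95 and 9.44 after Adeno-Cre and 8.52, 9.03 and 8.16 after Adeno-GFP. It rose 3.78-fold in fasted mice (log2 1.92, SE 0.23, adjusted p = 0.000843) and 2.09-fold in fed mice (log2 1.06, SE 0.23, adjusted p = 0.0437). No group overlapped in either diet, and a second probe set of Rrm2 had a change of 1.67 and 1.05.

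Rrm1, the partner subunit, read 9.29, 9.70 and 9.39 after Adeno-Cre and 8.19, 7.15 and 8.25 after Adeno-GFP in fasted livers, a rise of 1.60 (SE 0.26, adjusted p = 0.00489). Adeno-GFP fasted replicate 2 again lay far under the other arrays of its group. Without 1 array in turn that change was 1.24 to 1.79, and it passed in all 12 fits. Fed livers gave 9.24, 9.25 and 9.14 after Adeno-Cre and 8.22, 8.86 and 8.16 after Adeno-GFP (change 0.79, adjusted p = 0.193). Tyms, which makes thymidylate, stood at 7.70, 7.85 and 7.62 after Adeno-Cre and 6.54, 6.81 and 6.84 after Adeno-GFP in fasted livers, a rise of 0.99 (SE 0.12, adjusted p = 0.000721). In both of these genes the fasted groups lay well apart. The fed levels of Tyms were 7.50, 7.32 and 7.53 after Adeno-Cre and 7.05, 7.19 and 6.82 after Adeno-GFP (change 0.43, adjusted p = 0.106). Dut, which removes dUTP, rose by 0.41 in fasted mice (adjusted p = 0.0391), a call kept in 3 of the 12 fits without 1 array (adjusted p up to 0.162). A second probe set of Dut, with group means of 4.11 to 4.42, had a change of 0.15 in fasted and 0.21 in fed mice.

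Tk1, thymidine kinase 1, a salvage enzyme usually high in S phase, did not rise in either diet. Its fasted levels were 8.42, 8.62 and 8.58 after Adeno-Cre and 8.51, 8.71 and 8.48 after Adeno-GFP, a change of -0.03 (SE 0.10, adjusted p = 0.926). In fed livers the 3 Adeno-Cre arrays, at 8.50, 8.56 and 8.35, lay under the 3 Adeno-GFP arrays, at 8.73, 8.90 and 8.67, which held for no other member. That change of -0.30 (SE 0.10) did not pass (adjusted p = 0.19), and 11.5% of all genes had Adeno-Cre fed arrays under the Adeno-GFP fed arrays.

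Of the 4 genes that copy chromatin and its DNA methylation, 3 rose in fasted and 1 in fed mice. Chaf1a, the large subunit of the factor that puts histones onto new DNA, stood at 6.61, 7.10 and 6.99 after Adeno-Cre and 5.75, 5.68 and 5.93 after Adeno-GFP in fasted livers. In fed livers the levels were 7.15, 6.99 and 7.32 after Adeno-Cre and 6.35, 6.63 and 6.02 after Adeno-GFP. It rose by 1.12 (SE 0.16, adjusted p = 0.00239) in fasted and by 0.82 (SE 0.16, adjusted p = 0.029) in fed mice, from an Adeno-GFP fasted mean under the array medians. Chaf1b, its partner, read 7.49, 7.70 and 7.40 after Adeno-Cre and 6.87, 6.91 and 6.68 after Adeno-GFP in fasted livers, a rise of 0.71 (adjusted p = 0.00425). Its fed levels were 7.48, 7.47 and 7.30 after Adeno-Cre and 7.23, 7.14 and 6.87 after Adeno-GFP, a change of 0.33 (adjusted p = 0.213).

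Dnmt1, the methyltransferase that copies DNA methylation to the new strand, stood at 8.68, 8.87 and 8.94 after Adeno-Cre and 7.89, 7.56 and 8.21 after Adeno-GFP in fasted livers, a rise of 0.94 (SE 0.14, adjusted p = 0.0032). Its 3 Adeno-Cre fed arrays, at 8.82, 8.84 and 8.86, were nearly equal and above the Adeno-GFP fed arrays at 8.22, 8.54 and 8.27, and the change of 0.50 did not pass (adjusted p = 0.128). Uhrf1, which brings Dnmt1 to new DNA, had fasted levels of 6.93, 7.34 and 7.07 after Adeno-Cre and 6.67, 6.27 and 6.83 after Adeno-GFP and fed levels of 6.98, 7.10 and 7.04 after Adeno-Cre and 6.89, 6.94 and 6.85 after Adeno-GFP. Its Adeno-Cre arrays lay above its Adeno-GFP arrays in both diets, but neither change passed (0.53, adjusted p = 0.0611, and 0.15, adjusted p = 0.738).

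Of the 4 E2F factors 2 rose in fasted mice and 1 in fed mice. E2f7 and E2f8, the atypical members that repress E2F targets late in S phase and that take part in hepatocyte polyploidy, rose in fasted mice, and E2f8 in fed mice too. The activators E2f1 and E2f2 did not pass, and whether the 2 kinds differ was not tested. E2f8 stood at 9.20, 9.87 and 9.50 after Adeno-Cre and 8.35, 8.34 and 8.80 after Adeno-GFP in fasted livers, and at 9.60, 9.29 and 9.85 after Adeno-Cre and 8.34, 8.64 and 8.63 after Adeno-GFP in fed livers. It rose by 1.03 (SE 0.19, adjusted p = 0.00988) in fasted and by 1.04 (SE 0.19, adjusted p = 0.0213) in fed mice. The fasted call was lost without Adeno-GFP fasted replicate 2 (adjusted p = 0.0526). E2f7 read 6.35, 6.77 and 6.72 after Adeno-Cre and 5.94, 5.87 and 5.70 after Adeno-GFP in fasted livers, a rise of 0.78 (SE 0.11, adjusted p = 0.00278) from levels under the array medians. Its levels in fed livers were 6.96, 6.83 and 6.78 after Adeno-Cre and 6.56, 6.72 and 6.52 after Adeno-GFP, with a change of 0.26 (adjusted p = 0.383).

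E2f1 had fasted levels of 5.78, 5.82 and 6.00 after Adeno-Cre and 6.23, 5.98 and 6.15 after Adeno-GFP, and fed levels of 6.28, 6.08 and 6.03 after Adeno-Cre and 6.18, 6.19 and 5.88 after Adeno-GFP. Its changes were -0.25 (SE 0.11, adjusted p = 0.276) and 0.04 (SE 0.11, adjusted p = 0.929). E2f2 had fasted levels of 5.81, 5.88 and 6.03 after Adeno-Cre and 6.39, 5.32 and 5.95 after Adeno-GFP and fed levels of 6.02, 6.20 and 5.87 after Adeno-Cre and 5.88, 6.01 and 5.95 after Adeno-GFP, with changes of 0.02 and 0.08 (adjusted p = 0.971 and 0.926). All group means of both genes lay under 6.26, so a difference in them may not be measurable on these arrays.

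Brca1, which acts in the repair of broken replication forks by homologous recombination, had the smallest p of the 46 genes averaged over diets. It stood at 7.75, 8.12 and 8.02 after Adeno-Cre and 6.63, 6.02 and 6.22 after Adeno-GFP in fasted livers. In fed livers it stood at 8.0, 7.95 and 7.88 after Adeno-Cre and 6.65, 7.31 and 6.98 after Adeno-GFP. It rose 3.18-fold (log2 1.67, SE 0.17, adjusted p = 0.000433) in fasted and 1.95-fold (log2 0.96, SE 0.17, adjusted p = 0.0221) in fed mice. The 6 Adeno-Cre arrays all lay above the 6 Adeno-GFP arrays.

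**Figure D3:**
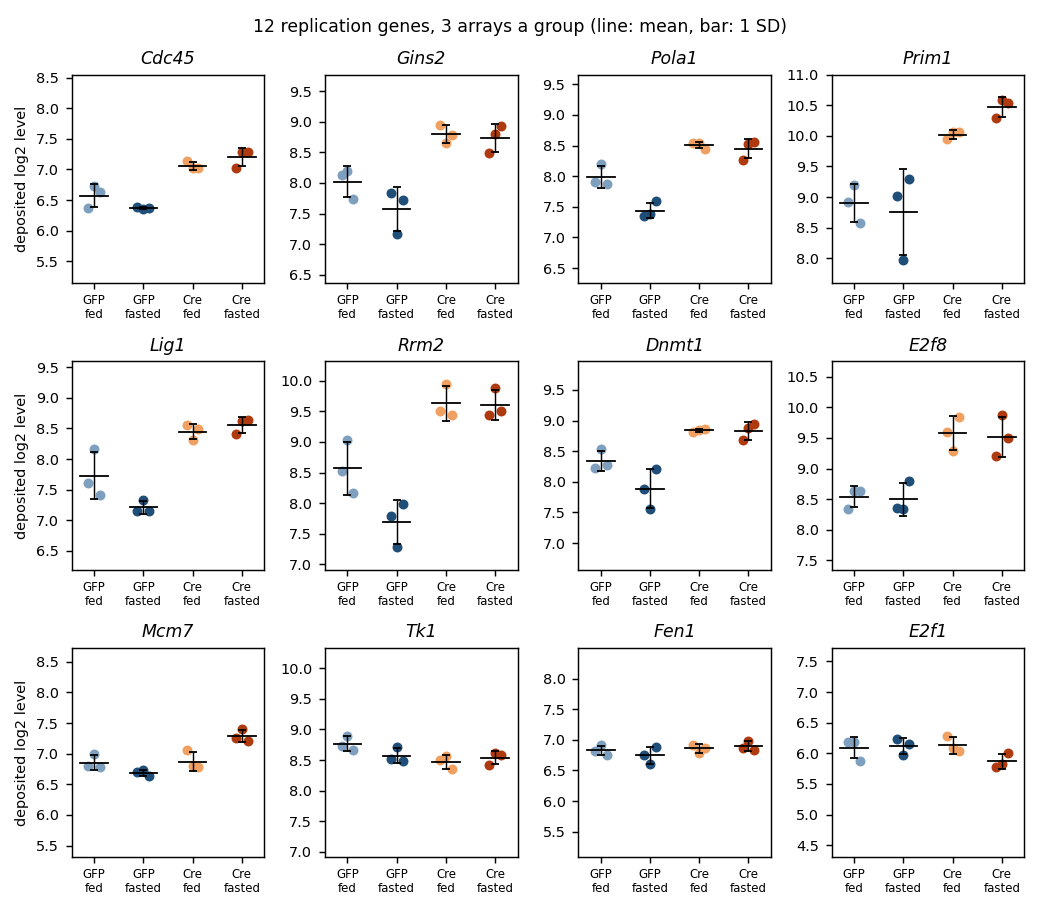
Deposited log2 levels of 12 replication genes in the 4 groups; points are the 3 arrays of a group, lines their mean and bars 1 SD, and every panel spans the same range of log2 units. In the upper 8 genes both Adeno-Cre groups lie above both Adeno-GFP groups, in Mcm7 the Adeno-Cre fasted group alone is high, and in Tk1, Fen1 and E2f1 the groups lie close together.

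The second comparison was fasting against feeding after each virus. After Adeno-GFP, replication genes were lower in fasted livers: 4 of the 46 fell and 0 rose, against 1.87% of all genes that fell and 1.2% that rose, with a median log2 change of -0.29 (all genes, 0.01). The fasted arrays lay under the fed arrays in 21 genes (11.1% of all genes). The 4 were E2f7 (fell by 0.76, SE 0.11, adjusted p = 0.00432), Rfc3 (fell by 0.60, SE 0.11, adjusted p = 0.0139), Pola1 (fell by 0.55, SE 0.11, adjusted p = 0.0191) and Prim2 (fell by 0.47, SE 0.10, adjusted p = 0.0218). E2f7 passed in each of the 12 fits without 1 array. When replicate 2 of either Adeno-GFP group was left out 1 gene passed, and when replicate 3 of the Adeno-GFP fed group was left out 7 did. Pola1 also lost its call without Adeno-GFP fasted replicate 1 (adjusted p up to 0.0806 over these fits), Rfc3 without Adeno-GFP fed replicate 1 (up to 0.0656) and Prim2 without any 1 of the 6 Adeno-GFP arrays (up to 0.0851).

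The largest changes with fasting after Adeno-GFP did not pass. They were those of Rrm2 (-0.88, SE 0.23, adjusted p = 0.0612) and Pole2 (-0.78, SE 0.22, adjusted p = 0.0883). At an unadjusted p under 0.05, 24 of the 46 genes were lower and 0 higher, against 1953 lower and 1745 higher of all 22180 genes. This comparison and that of Adeno-Cre in fasted mice use the same 3 Adeno-GFP fasted arrays, so their values for a gene are not independent. Genes of mitosis, a list taken up again below, were lower as well. With fasting after Adeno-GFP 9 of 25 fell and 0 rose, with a median of -1.03 and all 25 negative. After Adeno-Cre 0 of the 25 passed, with a median of -0.34 and all 25 negative. Some cell type markers were also lower with fasting after Adeno-GFP. Of 16 endothelial markers 1 fell (Erg, -0.41) and 14 were negative, with a median of -0.32 and 9 lower at an unadjusted p under 0.05. Of 15 stellate markers 2 fell (Lrat, -0.76, and Col1a2, -0.55), with a median of -0.13. Of 14 hepatocyte markers 1 rose (Hnf4a, 0.60), with a median of 0.03, and 0 passed in the other 6 marker lists, whose medians lay between -0.05 and 0.19. The part of these marker shifts in the levels of replication genes was not tested.

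After Adeno-Cre, changes of replication genes with fasting went both ways. They ran from -0.29 to 0.45, with 23 genes above and 23 below 0 and a median of -0.0018 that was -0.07 to 0.06 under the alternatives. The fasted arrays lay above the fed arrays in 10 genes (11.3% of all genes) and under them in 4 (9.81%). Of the 46 genes 2 rose and 0 fell, against 1.5% of all genes that rose and 1.17% that fell: Mcm7 by 0.41 (SE 0.10, adjusted p = 0.0432) and Rfc2 by 0.36 (SE 0.08, adjusted p = 0.0368). These calls are marginal: the count was 0 without any 1 of Adeno-Cre fasted replicates 1 and 2, Adeno-Cre fed replicates 2 and 3, Adeno-GFP fasted replicate 3 and Adeno-GFP fed replicates 1 and 3, and 1 without replicate 1 of Adeno-Cre fed livers or replicate 1 or 2 of Adeno-GFP fasted livers. It was also 1 with the replicate number as a block. The SE of a single gene ran to 0.33 (Mcm6).

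**Figure D4:**
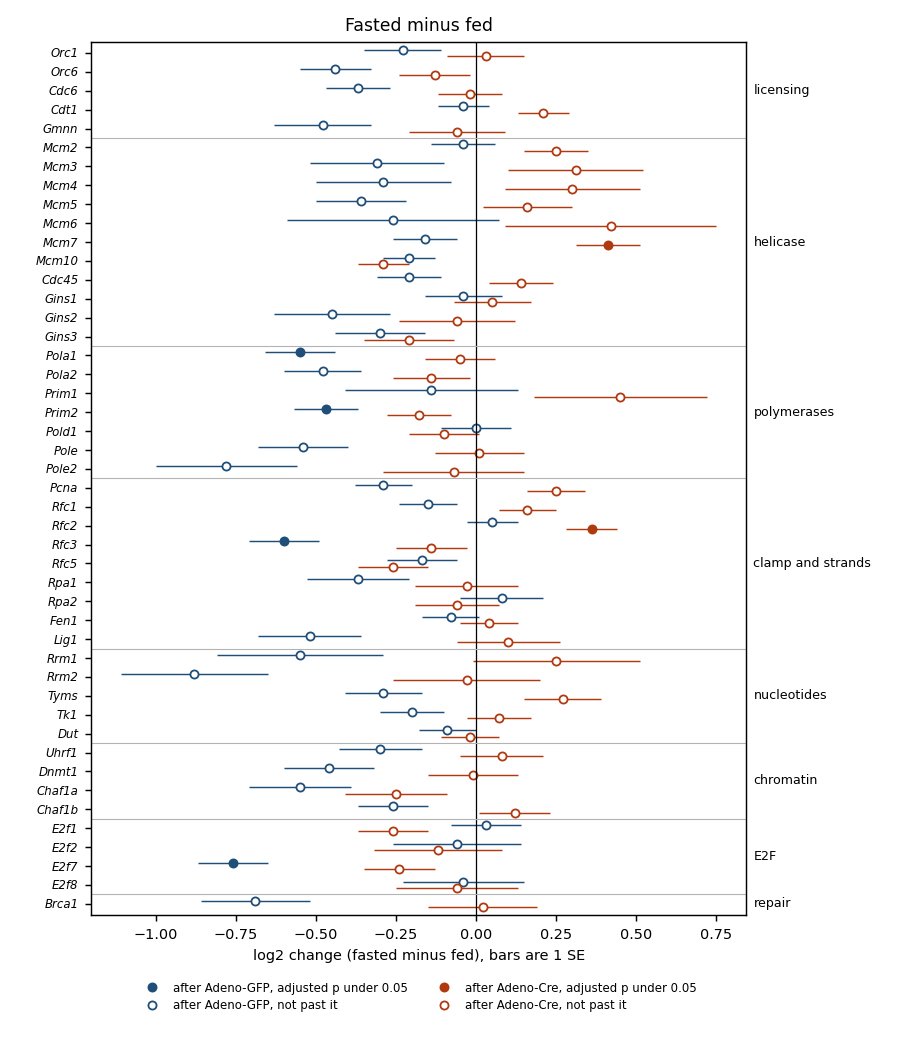
Log2 change of each of the 46 genes with fasting (fasted minus fed) after Adeno-GFP and after Adeno-Cre, with 1 SE; filled points passed limma's adjusted p of 0.05. After Adeno-GFP 43 of the 46 points lie left of 0 and 4 are filled, and after Adeno-Cre 23 lie on each side and 2 are filled.

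Whether the Adeno-Cre change differed between the diets was tested as the interaction, the fasted change minus the fed change. By limma 0 of the 46 genes passed, and 1 of all 22180 genes (0.00451%). The interaction was positive in 39 of the 46 genes, with a median of 0.35, and at an unadjusted p under 0.05 it was positive in 20 and negative in 0, against 3.75% of all genes with a positive and 3.81% with a negative one. The smallest p belonged to Pcna (log2 difference 0.54, SE 0.13, limma unadjusted p = 0.00103, adjusted p = 0.538) and Mcm7 (0.57, SE 0.14, limma unadjusted p = 0.00123, adjusted p = 0.538). Without 1 array in turn the genes with a positive interaction at an unadjusted p under 0.05 numbered 10 to 22, with 10 when replicate 2 of Adeno-Cre fasted livers was left out, 11 for replicate 2 of Adeno-GFP fed livers, 13 for replicate 2 or 3 of Adeno-Cre fed livers, and 14 for replicate 2 of Adeno-GFP fasted livers. At this number of arrays a larger change in fasted mice was therefore not shown for any single gene.

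Other genes of DNA replication, listed by function, were set beside the members. Of 29 measured genes of the replication machinery outside the list, 13 rose in fasted and 3 in fed mice and 0 fell, with medians of 0.39 and 0.23. Dbf4, the activator of the kinase that fires origins, rose by 2.03 (SE 0.14, adjusted p = 0.000148) in fasted and by 1.12 (adjusted p = 0.00706) in fed mice. Pole3, a small subunit of the leading-strand polymerase, rose by 0.74 and 0.53. Ticrr and Topbp1, which help Cdc45 onto the ring, rose by 1.18 and 0.68 in fasted mice.

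Of 11 further genes of chromatin copying 7 rose in fasted and 1 in fed mice, with medians of 0.55 and 0.26. Hells, a chromatin remodeller that acts with DNA methylation, rose by 1.92 (SE 0.20, adjusted p = 0.000433) and 0.93 (adjusted p = 0.0437). Of 11 genes of homologous recombination 6 rose in fasted and 5 in fed mice and 0 fell, with medians of 0.53 and 0.56. Blm, a helicase of recombination, rose by 1.38 and 0.85, and Fanci, of crosslink repair, by 0.85 and 0.58. Palb2, a partner of Brca1, rose by 0.53 and 0.58.

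Of 14 measured genes of general nucleotide synthesis 4 rose in fasted and 0 in fed mice, with medians of 0.14 and 0.06: Dck (0.75), Ctps (0.66), Dtymk (0.63) and Dctd (0.55), which make or salvage pyrimidine nucleotides. Among 9 genes of the replication checkpoint Chek1 (1.32), Wee1 (0.95) and Cdc25a (0.70) rose in fasted mice and 0 of 9 passed in fed mice. In the rest of the E2F and retinoblastoma family Rbl1 (1.16), a repressor related to the retinoblastoma protein, and Tfdp1 (0.70), the partner of E2F factors, rose in fasted mice, 2 of 9, and 0 passed in fed mice.

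Of 11 cyclins, kinases and inhibitors of the step from G1 to S, 4 rose in fasted mice, and 1 rose and 1 fell in fed mice. Ccna2, the cyclin of S phase, rose by 1.80 (SE 0.23, adjusted p = 0.00114) and 1.23 (adjusted p = 0.0231), Ccne1, a cyclin of S phase entry, by 0.60 in fasted mice, and Cdk6 fell by 0.59 in fed mice (adjusted p = 0.0345). Of the mitotic genes 25 of 25 rose in fasted and 13 of 25 in fed mice, with medians of 2.00 and 1.38; whether their changes exceeded those of the replication genes was not tested. The p53 target Cdkn1a, named here for its role and not by the rule for named genes, had changes of -0.45 (adjusted p = 0.536) in fasted and -0.68 (adjusted p = 0.445) in fed mice, and among 18 measured targets of p53 there were 2 that fell and 0 that rose, in fasted mice (0.482% of all genes fell) and likewise in fed mice (0.415%).

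**Figure D5:**
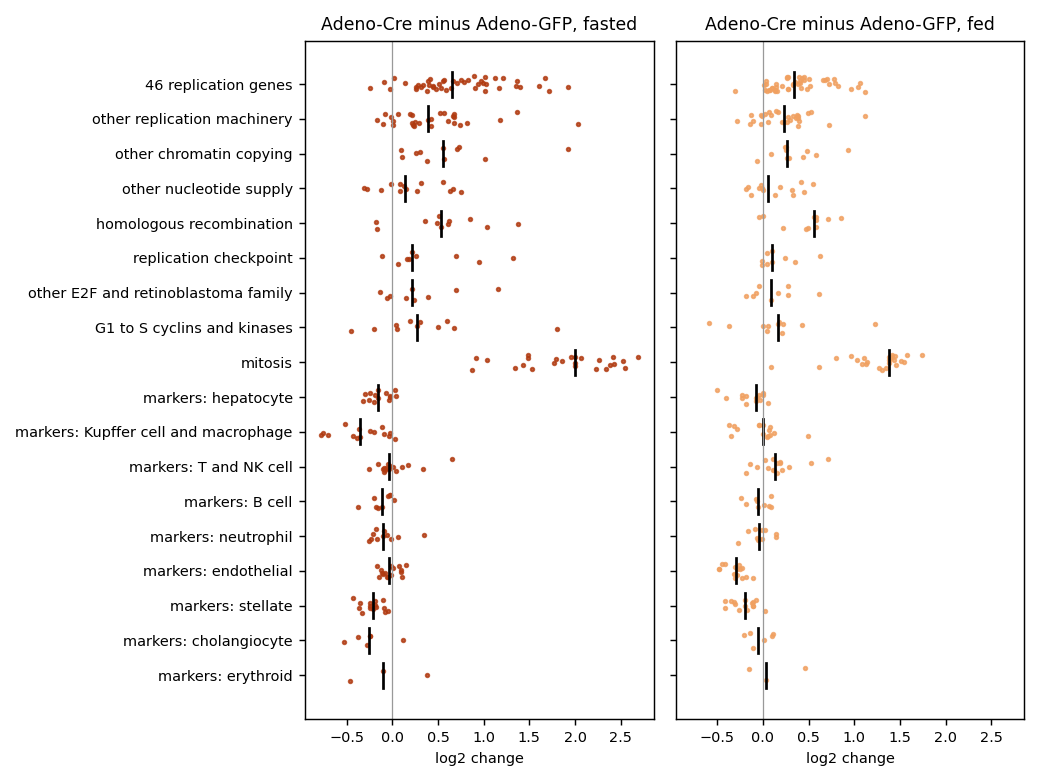
Log2 change with Adeno-Cre (Adeno-Cre minus Adeno-GFP) of the single genes of the lists shown, in fasted mice at left and fed mice at right. Black bars mark list medians, and the lists of p53 targets and interferon response genes are not plotted. The 46 replication genes have medians of 0.65 and 0.34, mitosis genes 2.00 and 1.38, and the marker lists of liver cell types lie between -0.36 and 0.13.

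Markers of the cell types that a liver sample can hold were measured beside the members. Of 14 hepatocyte markers 0 passed in either diet, with medians of -0.16 in fasted and -0.07 in fed mice; the mean level of the list was 12.03 to 12.09 in Adeno-Cre fasted, 12.18 to 12.22 in Adeno-GFP fasted, 11.87 to 12.08 in Adeno-Cre fed and 12.11 to 12.18 in Adeno-GFP fed arrays. Of 16 markers of T and NK cells 1 rose in each diet, Gzma (0.65 and 0.71), and medians were -0.04 and 0.13. The mean level of that list was 6.26 to 6.34 in Adeno-Cre fasted, 6.26 to 6.29 in Adeno-GFP fasted, 6.39 to 6.53 in Adeno-Cre fed and 6.26 to 6.30 in Adeno-GFP fed arrays. Of the 16 markers 10 had means under the lowest array median, among them Gzma itself, Cd3d, Cd3e, Cd3g and Cd8a. The size of the Gzma change is therefore uncertain.

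Of 15 macrophage markers 1 fell in fasted mice, Lyz2 (-0.71), and 0 passed in fed mice, with medians of -0.36 and 0.00074. The mean level of the list was 7.62 to 8.08 in Adeno-Cre fasted, 8.02 to 8.50 in Adeno-GFP fasted, 7.88 to 8.35 in Adeno-Cre fed and 8.17 to 8.24 in Adeno-GFP fed arrays. B cell markers (9 measured, 7 with means under the lowest array median), neutrophil markers (11, of which 10), cholangiocyte markers (6, of which 4) and erythroid markers (3) had 0 genes past the threshold in either diet. Endothelial markers had 0 of 16 past it, with medians of -0.04 in fasted and -0.29 in fed mice, and stellate markers 0 of 15 in fasted and 1 lower in fed mice. In fasted mice the medians of all 9 marker lists lay between -0.36 and -0.04. Averaged over the diets 3 of 15 stellate markers fell, and 1 each of the hepatocyte, macrophage and cholangiocyte markers (2.03% of all genes fell). In that average 1 T and NK cell marker rose, and 0 endothelial, B cell, neutrophil or erythroid markers passed. Changes were negative in 15 of 15 stellate, 16 of 16 endothelial, 13 of 14 hepatocyte and 13 of 15 macrophage markers. They were positive in 12 of 16 T and NK cell markers. The part of shifts in cell types in the levels of replication genes was not tested further.

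Interferon response genes also moved with Adeno-Cre. Of 17 measured, 2 rose in fasted mice and 13 in fed mice, with medians of 0.21 and 1.47, against medians of 0.65 and 0.34 for the replication genes. The difference between the diets, the fasted change minus the fed change, passed for 0 of the 17 (smallest limma adjusted p = 0.404). At an unadjusted p under 0.05 it was negative in 16 and positive in 0, against 3.81% of all genes with a negative one. The replication genes past that level were positive, as given above. The part of the interferon response in the levels of replication genes was not tested.

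Levels of most pairs of members were positively correlated over the arrays. The median Pearson correlation over all 1035 pairs of the 46 genes was 0.74 across the 12 arrays, and 88.8% of the pairs were above 0. Taken as deviations from group means, which leaves out the differences between groups, the median was 0.37 and 85.6% of pairs were above 0. These are descriptions over 12 arrays that share their normalisation and, in part, their groups. No such correlation was computed for other genes, so whether the members are more alike than other genes was not tested. Single arrays enter the second value too: Adeno-GFP fasted replicate 2 was the lowest of its 3 arrays for 32 of the 46 genes. Mcm5 was most like the rest, with a median correlation of 0.88 with the other 45 genes, followed by Rrm2, Dnmt1 and Rrm1 at 0.87. At the other end, Tk1 (-0.25), E2f1 (-0.21), Pold1 (-0.06) and E2f2 (0.21) had the lowest medians.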

How the data were processed

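RNA of 12 livers was measured on Affymetrix arrays, 3 per group. The deposited log2 values were normalised with RMA, per the submitters' processing notes, and were not renormalised; its version and settings are not given here. Of 41345 probe sets, 23521 name 1 gene in the platform annotation, 1814 name several and 16010 are not listed in it. The probe set with the highest mean was kept per gene, which gave 22180 genes. No count or depth exists for arrays, and their number limits the precision. A group-mean model was fitted to all 12 arrays with limma 3.58.1 (R 4.3.3), p-values were adjusted by the Benjamini-Hochberg method over all genes, and the threshold was 0.05. The procedure was tested on simulated data. The members and lists were chosen with earlier results of these data known. In each role every array's value is given for up to 3 members with the smallest p averaged over diets, those past the threshold with diet, and the member nearest to 0. From other lists up to 4 genes with the smallest p are named. Cell type marker genes that passed were named after their values were seen. Alternatives were dim probe sets left out, quantile normalisation again, the replicate number as a block, only the groups compared, a trended and robust prior, probe sets averaged, adjustment over all probe sets, and leaving out each array. No replicate pair held identical values. Promoter windows are from RefSeq (GRCm38.p6).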

Additional observations from a re-analysis of the deposited data

Results flagged for a closer look

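In 2 members every fasted array lay under the fed arrays after Adeno-GFP and above them after Adeno-Cre. Over all genes, fasted arrays lay under the fed arrays in 11.1% after Adeno-GFP and above them in 11.3% after Adeno-Cre. The share of all genes with both was not counted. For Mcm7, a subunit of the helicase ring, the log2 change with fasting was -0.16 after Adeno-GFP and 0.41 after Adeno-Cre. For Pcna, the sliding clamp, it was -0.29 after Adeno-GFP and 0.25 after Adeno-Cre. The test of the difference itself did not pass in limma over all genes: Mcm7 0.57 (SE 0.14, limma adjusted p = 0.538) and Pcna 0.54 (SE 0.13, limma adjusted p = 0.538).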

How the results depend on the processing

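The median changes of the members moved by less than the spread between replicates under every alternative run. They kept their sign in all comparisons except fasting after Adeno-Cre, where the median of -0.0018 became 0.02 with dim probe sets left out, 0.0039 with probe sets averaged, and -0.07 to 0.06 without 1 array. Members past the threshold for Adeno-Cre in fed mice, 8 in the report, numbered 2 with the replicate number as a block, 3 with only the groups compared, 0 adjusted over all probe sets, and 0 to 11 without 1 array. Those for fasting after Adeno-GFP, 4 in the report, numbered 11 with dim probe sets left out, 9 with a trended and robust prior, 2 adjusted over all probe sets, and 1 to 7 without 1 array. Those for fasting after Adeno-Cre, 2 in the report, numbered 1 with the block, 0 with only the groups compared, 0 adjusted over all probe sets, and 0 to 2 without 1 array. For Adeno-Cre in fasted mice the 31 became 26 with the block, 22 with only the groups compared, 23 adjusted over all probe sets, and 22 to 31 without 1 array. Averaged over diets the 33 stayed 33 with the block, became 28 adjusted over all probe sets, and ranged from 26 to 34 without 1 array. The causes were not tested. Over all genes, deviations of same-numbered arrays of different groups had correlations of -0.091 to 0.147 over 18 pairs. Those of differently numbered arrays were -0.179 to 0.129 over 36 pairs. A pairing by number was therefore not seen, but correlations over all genes cannot show whether some genes share one. Signal near the array medians limits Orc1, E2f1 and E2f2 in all groups.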
